A study of Homo sapiens with 30 samples.

Results

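Aminoacyl-tRNA synthetases are the enzymes that join each amino acid to its tRNA before translation. The 38 genes described here comprised 19 cytosolic enzymes, 16 mitochondrial enzymes (symbols ending in 2) and 3 scaffold proteins of the cytosolic multi-synthetase complex (AIMP1, AIMP2 and EEF1E1). They were chosen by gene symbol from the 60675 genes of the expression table, where many carry older symbols without the 1 (AARS for AARS1), and all 38 were found. RNA sequencing was done on SW1783, a human astrocytoma cell line, 24 h after treatment with 70% ethanol extracts of herbal formulas. Doses were 20, 100 and 500 µg/mL, with 3 libraries per dose for Bojungikgi-tang and for Sayeok-tang, 2 for Banhasasim-tang and 1 for Yijung-tang. The vehicle was DMSO (3 libraries, 0.1% in the sample labels and 2% in the series' design text). All libraries came from this single cell line, and nothing in the labels says whether replicates were separate cultures, so p-values measure the spread between these libraries, which may be technical.

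Each compartment charges its own tRNAs: the cytosolic enzymes serve the proteins made from nuclear genes, and the mitochondrial enzymes, also nuclear-encoded, serve the few proteins made inside mitochondria. EPRS1, IARS1, KARS1, LARS1, MARS1, QARS1 and RARS1 of the cytosolic members sit with the scaffold proteins in one complex. GARS1 and KARS1 give both the cytosolic and the mitochondrial enzyme from one gene. When amino acids run short or another stress leads to phosphorylation of eIF2α, the transcription factor ATF4 is known to raise many cytosolic synthetase genes, through a composite element bound by C/EBP and ATF proteins.

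In these cells, 12 cytosolic enzymes were higher at 500 than at 20 µg/mL in both Sayeok-tang and Banhasasim-tang: AARS1, CARS1, EPRS1, GARS1, IARS1, LARS1, MARS1, NARS1, SARS1, TARS1, WARS1 and YARS1. The log2 fold changes ran between 0.20 and 0.79 in Sayeok-tang and between 0.57 and 1.42 in Banhasasim-tang. None of the other 7 cytosolic enzymes (FARSA, FARSB, HARS1, KARS1, QARS1, RARS1 and VARS1) was higher in either formula, with changes of -0.15 to 0.01 and -0.18 to 0.03. The 16 mitochondrial enzymes had median changes of 0.03 in Sayeok-tang and 0.06 in Banhasasim-tang.

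Sequence around the start of 8 members is shown because a known motif stood there in most of the 12 enzymes and in 1 other member. Promoter windows (250 bases before to 50 after the start, RefSeq, GRCh38.p14) were searched on both strands for TGATGNAA, whose reverse complement is TTNCATCA and which is a known form of the C/EBP-ATF composite element. The windows below are 30 bases long and read 5′ to 3′ on the gene's strand, with the match in capitals.
AARS1: ttttctcgcagTTGCATCAgccaagttaga
CARS1: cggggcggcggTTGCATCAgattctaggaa
GARS1: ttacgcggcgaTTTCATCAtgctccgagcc
IARS1: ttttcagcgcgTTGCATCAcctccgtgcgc
MARS1: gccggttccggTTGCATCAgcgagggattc
NARS1: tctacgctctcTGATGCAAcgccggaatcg
TARS1: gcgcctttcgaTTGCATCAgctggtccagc
YARS2: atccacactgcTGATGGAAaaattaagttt
Their positions were chr16:70289675-70289704 (minus strand) for AARS1, chr11:3057407-3057436 (minus) for CARS1, chr7:30594834-30594863 (plus) for GARS1, chr9:92293692-92293721 (minus) for IARS1, chr12:57488053-57488082 (plus) for MARS1, chr18:57621804-57621833 (minus) for NARS1, chr5:33440956-33440985 (plus) for TARS1 and chr12:32756076-32756105 (minus) for YARS2.

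The motif was found in 7 of the 10 raised cytosolic enzymes that had a promoter entry and in 0 of the 6 other cytosolic enzymes with one. Among mitochondrial enzymes it was found in 1 of 14, YARS2, and among the scaffold genes in 0 of 3. Over all promoters of the same length it was found in 1270 of 35116, or 3.62%, and counted per gene, as the members are, in 1217 of 27305, or 4.46%. The stricter form TGATGCAA was present in 6 of the 10 raised enzymes and in 0 of the other cytosolic, mitochondrial and scaffold members with an entry, against 0.866% of all promoters and 1.08% of all genes with one. LARS1, YARS1, VARS1, AARS2 and VARS2 had no entry. In TARS1, IARS1, CARS1, MARS1 and NARS1 the match lay within 15 bases of the annotated start, in GARS1 33 bases before it, and in AARS1 187 bases before it. A match is a run of letters in a fixed window, and binding at it was not measured here.

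The wider AARS1 stretch places the same match in its context at chr16:70289557-70289756 (minus strand). This stretch is the first 200 bases of the promoter window and stops short of the annotated start at chr16:70289506.
AARS1 upstream: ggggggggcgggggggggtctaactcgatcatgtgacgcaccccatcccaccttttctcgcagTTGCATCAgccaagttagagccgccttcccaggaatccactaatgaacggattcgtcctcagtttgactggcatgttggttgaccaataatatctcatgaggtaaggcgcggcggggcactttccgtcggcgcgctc

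Library depth was 28.01 to 59.9 M expected counts. Of 8 astrocyte markers, GJA1 (247 CPM, counts per 1 M counts of the library), SOX9 (74.9 CPM) and SLC1A3 (35.1 CPM) were well expressed in vehicle cells. The others were near the floor: SLC1A2 averaged 0.344, S100B 0.213, GFAP 0.0828 and ALDH1L1 0.0237 CPM, and AQP4 was at 0 in all 3 vehicle libraries. Some markers listed for other cell types were well expressed too, with KRT7 at 630, KRT18 at 225, CNP at 154 and TUBB3 at 108 CPM. Others of those lists were not, such as EPCAM (0.0475 CPM) and MOG (0). The vehicle libraries carry a label set of their own, so in comparisons with vehicle the treatment and that set cannot be told apart. Banhasasim-tang and Yijung-tang libraries carry label set 14, and Bojungikgi-tang and Sayeok-tang libraries label set 15. A comparison of formulas across these sets has the same limit, while each dose comparison lies within a set. The dose comparisons hold no vehicle library and lead the account for that reason. Mitochondrial ribosomal RNA took 7.7 to 7.82% of counts at 500, 9.69 to 9.71% at 100 and 3.44 to 3.93% at 20 µg/mL of Banhasasim-tang, against 0.942 to 1.0% in vehicle. It took 1.41 to 1.64% in the libraries of the other formulas, with 1.45 to 1.48% in Yijung-tang, which shares label set 14.

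In vehicle cells, cytosolic enzymes stood above mitochondrial enzymes per kb of exon, the length being that of all annotated exons of a gene merged. The median was 32.6 CPM per kb of exon over the cytosolic enzymes (range 5.9 to 53.3) and 6.05 over the mitochondrial enzymes (range 2.4 to 35.0). IARS1, the isoleucine enzyme, was highest at 53.3 ± 1.43 CPM per kb (SD, n = 3), followed by RARS1 and, at rank 3, GARS1 at 47.5 ± 0.549. The isoleucine enzyme also led the mitochondrial group, with IARS2 at 35.0 ± 0.788 CPM per kb, rank 9 among the 38 genes. VARS2 (2.4 ± 0.0636), MARS2 (2.62 ± 0.153) and FARS2 (2.7 ± 0.0964) were lowest. The rank of VARS2 depends on its merged exon length of 8448 bases. Before division by length it had 20.2 CPM, above MARS2 (7.91), PARS2 (9.09) and FARS2 (13.1 CPM). The scaffold genes lay between, at 25.5 ± 0.763 for AIMP2, 19.8 ± 0.676 for EEF1E1 and 14.4 ± 0.225 CPM per kb for AIMP1.

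**Figure D1:**
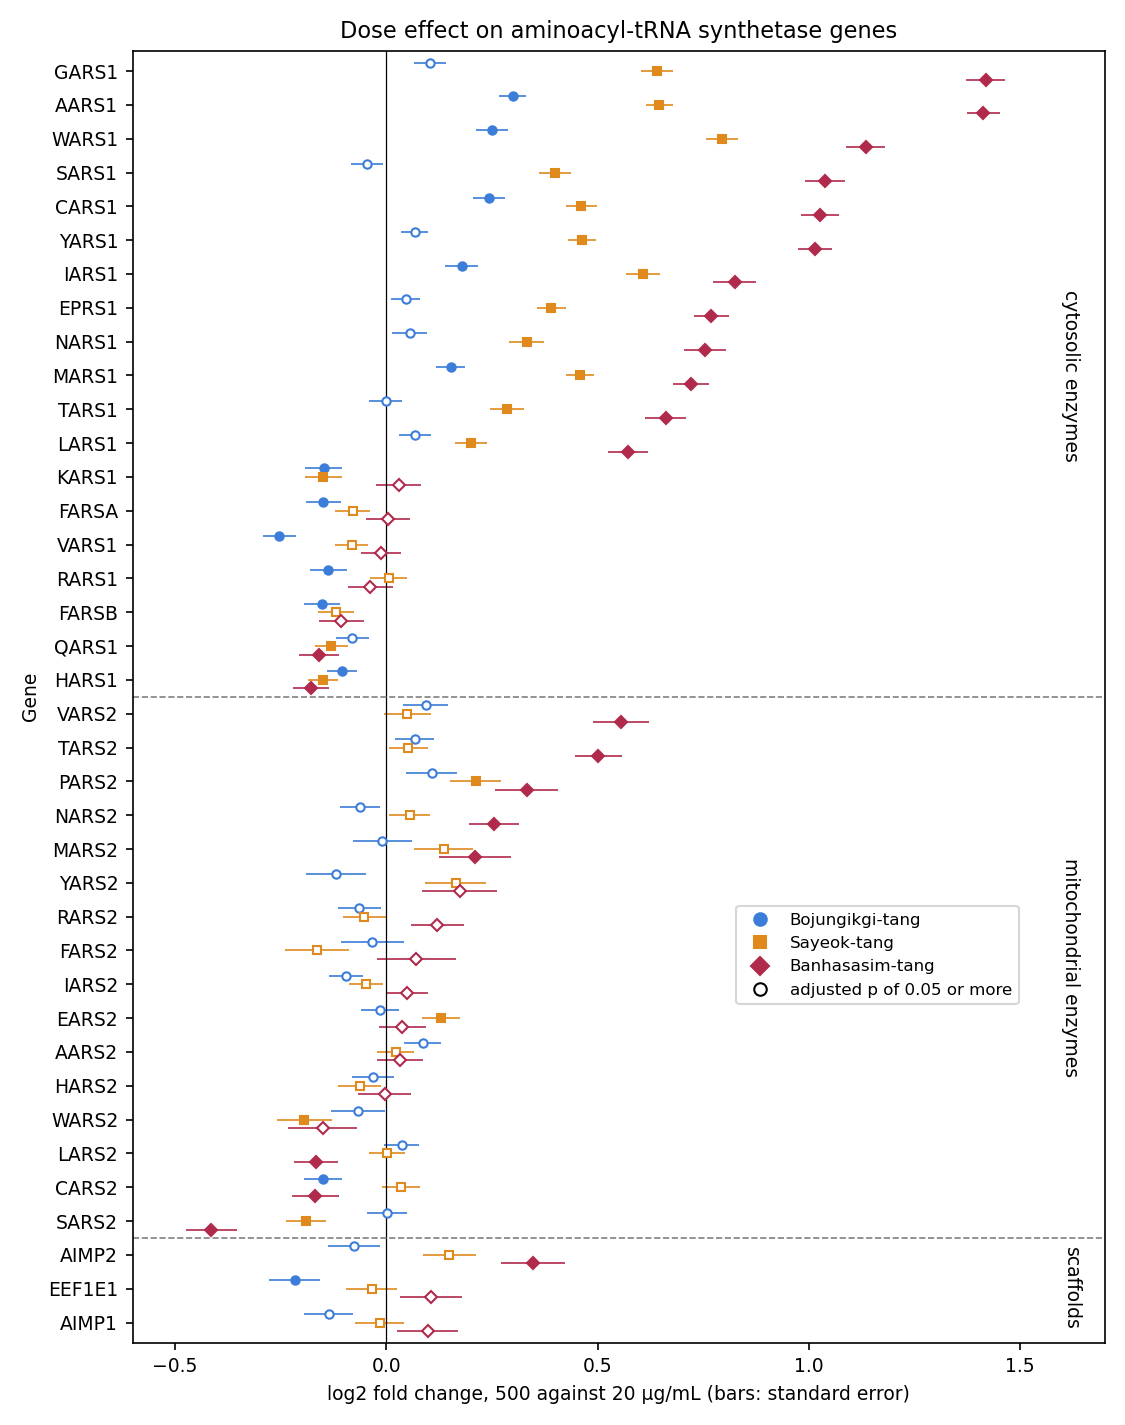
Log2 fold change at 500 against 20 µg/mL for each of the 38 genes (rows, grouped by compartment and ordered by Banhasasim-tang), with standard errors. Filled symbols passed an adjusted p of 0.05. The 12 raised cytosolic enzymes lie to the right of 0 in Sayeok-tang (0.20 to 0.79) and further right in Banhasasim-tang (0.57 to 1.42), while the other 7 cytosolic enzymes lie between -0.25 and 0.03 in all 3 formulas.

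In Sayeok-tang most of the members that rose with dose were cytosolic. Of 19 cytosolic enzymes, 12 rose and 3 fell at 500 against 20 µg/mL (median log2 fold change 0.33), against 2 higher and 2 lower of 16 mitochondrial enzymes (median 0.03) and 0 of 3 scaffold genes. Over all 19632 genes tested, 20.5% were called in either direction, 9.89% higher and 10.6% lower, and their median was 0. For the scaffold genes, 1 was higher at an unadjusted p under 0.05 in edgeR and 0 were called by DESeq2. Classes I and II, the structural families of synthetases, both contributed: 7 of 10 cytosolic class I and 5 of 9 cytosolic class II enzymes rose. MARS1, the methionine enzyme (0.46 ± 0.03), shares exon sequence with the opposite-strand stress gene DDIT3, and its expected counts were not whole in 100% of libraries. Both assembly states contributed, with 4 of 7 enzymes of the multi-synthetase complex and 8 of 12 outside it higher.

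WARS1, the tryptophan enzyme (chr14:100333788-100376805, minus strand, GRCh38), had 418, 427 and 450 CPM at 500 µg/mL of Sayeok-tang, against 246, 248 and 253 CPM at 20 µg/mL. Its change was the largest of the group in this formula, at 0.79 ± 0.04 (log2, SE; adjusted p = 7.9e-15). In Banhasasim-tang WARS1 had 565 and 590 CPM at 500 µg/mL, against 272 and 254 CPM at 20 µg/mL. The dose groups did not overlap in either formula. The share of all genes whose groups separated is not given here, so this and later separations are not set apart from those of other genes. WARS1 is also known as an interferon-inducible gene. Its exons overlap those of the opposite-strand gene WDR25, and its expected counts were not whole in 80.0% of libraries. The library kit marks strand, but no source used here says whether the counting took account of it, so reads of overlapping genes may be shared.

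AARS1, the alanine enzyme (chr16:70252295-70289543, minus strand), had 300, 296 and 296 CPM at 500 µg/mL of Sayeok-tang, against 186, 197 and 187 CPM at 20 µg/mL (0.65 ± 0.03, adjusted p = 1.27e-14). Banhasasim-tang gave AARS1 564 and 581 CPM at 500 µg/mL, against 218 and 212 CPM at 20 µg/mL (1.41 ± 0.04, adjusted p = 1.1e-20), a fold of 2.66. With Bojungikgi-tang, AARS1 had 233, 233 and 236 CPM at 500 µg/mL, against 191, 187 and 192 CPM at 20 µg/mL (0.30 ± 0.03, adjusted p = 1e-07). AARS1 thus separated the highest from the lowest dose without overlap in all 3 replicated formulas. In Bojungikgi-tang 7 of 19 cytosolic enzymes lay all above and 7 all below, so such separation is not particular to AARS1.

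GARS1, the glycine enzyme of both compartments (chr7:30594681-30634033, plus strand), had 297, 307 and 283 CPM at 500 µg/mL of Sayeok-tang, against 185, 191 and 194 CPM at 20 µg/mL (0.64 ± 0.04, adjusted p = 4.31e-13). In Banhasasim-tang GARS1 reached 569 and 566 CPM at 500 µg/mL, against 217 and 207 CPM at 20 µg/mL (1.42 ± 0.05). For Bojungikgi-tang, GARS1 had 204, 197 and 195 CPM at 500 µg/mL, against 179, 189 and 186 CPM at 20 µg/mL, and the change of 0.10 ± 0.04 did not pass (adjusted p = 0.0626). KARS1, the lysine enzyme and the other gene that serves both compartments (chr16:75627474-75648643, minus strand), went the other way in Sayeok-tang, with 144, 147 and 145 CPM at 500 µg/mL, against 155, 161 and 167 CPM at 20 µg/mL (-0.15 ± 0.04, adjusted p = 0.0143). KARS1 had 164 and 168 CPM at 500 µg/mL of Banhasasim-tang, against 168 and 158 CPM at 20 µg/mL, and these overlapped. The exons of KARS1 overlap those of the opposite-strand gene TERF2IP, and its expected counts were not whole in 46.7% of libraries.

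IARS1 (chr9:92210207-92293756, minus strand) had 547, 549 and 538 CPM at 500 µg/mL of Sayeok-tang, against 367, 362 and 343 CPM at 20 µg/mL (0.61 ± 0.04). YARS1, the tyrosine enzyme, had 215, 219 and 211 CPM at 500 µg/mL of Sayeok-tang, against 160, 154 and 153 CPM at 20 µg/mL (0.46 ± 0.03). CARS1, the cysteine enzyme, had 79.0, 81.8 and 82.0 CPM at 500 µg/mL of Sayeok-tang, against 58.3, 59.3 and 58.7 CPM at 20 µg/mL (0.46 ± 0.04). No 500 µg/mL library of these genes overlapped a 20 µg/mL library. In Banhasasim-tang the changes were 0.82 ± 0.05 for IARS1, 1.01 ± 0.04 for YARS1 and 1.03 ± 0.04 for CARS1.

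RARS1 and FARSA moved least in Sayeok-tang among cytosolic enzymes. RARS1, the arginine enzyme, had 162, 165 and 150 CPM at 500 µg/mL, against 156, 162 and 157 CPM at 20 µg/mL (0.01 ± 0.04, adjusted p = 0.952). FARSA, a subunit of the phenylalanine enzyme, had 90.6, 90.8 and 90.3 CPM at 500 µg/mL, against 92.8, 95.0 and 99.7 CPM at 20 µg/mL (-0.08 ± 0.04, adjusted p = 0.199). FARSB, the other subunit, changed by -0.12 ± 0.04 (adjusted p = 0.0517). HARS1, QARS1 and KARS1, the histidine, glutamine and lysine enzymes, were the 3 that fell, with changes of -0.15, -0.13 and -0.15 on the log2 scale. Only the call of HARS1 held when libraries were scaled by size alone (adjusted p = 0.016), where QARS1 had -0.09 (adjusted p = 0.0877) and KARS1 -0.11 (adjusted p = 0.0596). HARS1 shares exon sequence with the opposite-strand genes HARS2 and WDR55, and its expected counts were not whole in 100% of libraries.

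**Figure D2:**
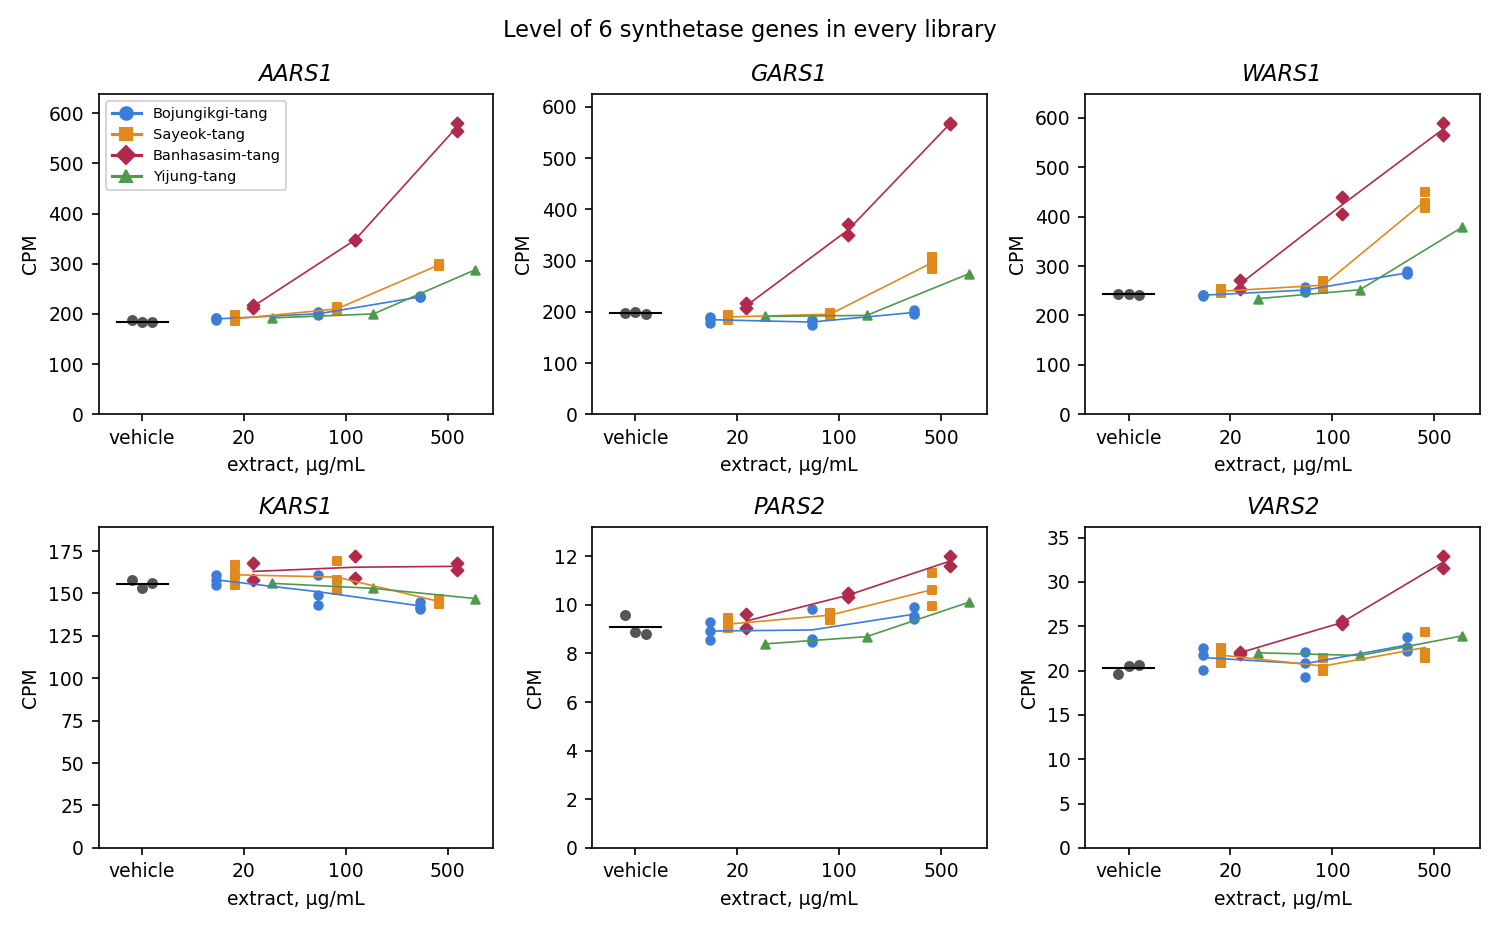
CPM in every library (points) for 6 synthetase genes in vehicle and at 20, 100 and 500 µg/mL of the 4 formulas, with lines through the means of a formula. AARS1, GARS1 and WARS1 climb at 100 and 500 µg/mL of Banhasasim-tang and at 500 µg/mL of Sayeok-tang and Yijung-tang. KARS1, the other gene that serves both compartments, has between 141 and 172 CPM throughout, and VARS2 stands above 31 CPM at 500 µg/mL of Banhasasim-tang.

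Banhasasim-tang gave the same 12 cytosolic enzymes larger changes, and gave them at a lower dose. At 500 against 20 µg/mL, 12 of 19 cytosolic enzymes rose and HARS1 and QARS1 fell (median 0.72), beside 43.7% of all genes called, 22.3% higher and 21.3% lower. All 12 genes of the Sayeok-tang list were among the 12 of Banhasasim-tang, so the overlap was 100% of each list. The 2 comparisons share no library. The same overlap over all genes is not given here, so it cannot be called particular to these members. At 100 against 20 µg/mL the same 12 were again higher and no member was lower (log2 0.31 to 0.76), where 6.6% of all genes were called, 3.64% higher and 2.96% lower. By library size alone the cytosolic counts were 12 higher and 2 lower. GARS1 (0.76 ± 0.05), AARS1 (0.69 ± 0.04) and WARS1 (0.68 ± 0.05) led at that dose. For the mitochondrial enzymes at 100 against 20 µg/mL, 0 of 16 were called, and VARS2 came closest at 0.21 ± 0.07 (adjusted p = 0.0583). At an unadjusted p under 0.05 edgeR gave 2 of them, both higher, and DESeq2 called 0.

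At 100 against 20 µg/mL the other formulas gave 1 call or none. Sayeok-tang gave 0 called members, beside 0.0306% of all genes (0.0204% higher and 0.0102% lower), and AARS1 came closest with 210, 206 and 214 CPM at 100 µg/mL, against 186, 197 and 187 CPM at 20 µg/mL (0.14 ± 0.03, adjusted p = 0.125). At an unadjusted p under 0.05 edgeR gave 2 members, both higher, and DESeq2 called 1. In Bojungikgi-tang the valine enzyme VARS1 was lower, with 169, 166 and 173 CPM at 100 µg/mL, against 196, 184 and 187 CPM at 20 µg/mL (-0.16 ± 0.04, adjusted p = 0.0304), where 1.56% of all genes were called, 1.11% lower.

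**Figure D3:**
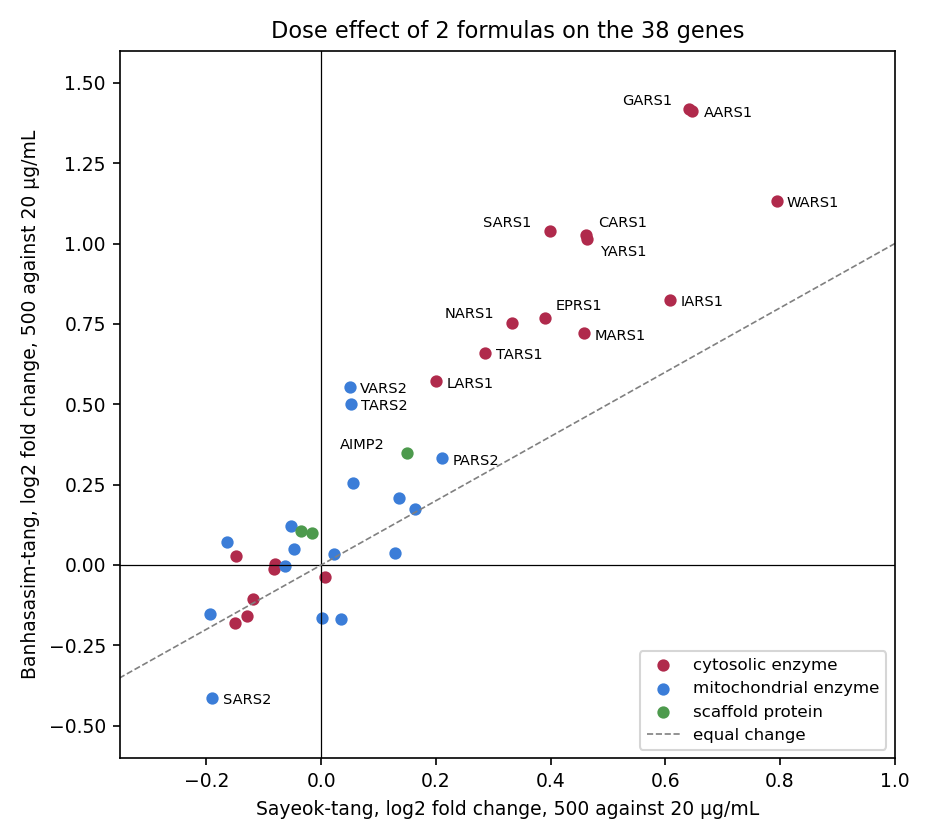
Log2 fold change at 500 against 20 µg/mL in Sayeok-tang (horizontal) and Banhasasim-tang (vertical) for the 38 genes, coloured by compartment, with a dashed line of equal change. All 12 raised cytosolic enzymes lie above the line, led by GARS1 and AARS1, and VARS2 and TARS2 lie near 0.05 in Sayeok-tang but at 0.56 and 0.50 in Banhasasim-tang.

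Bojungikgi-tang split the cytosolic enzymes. There 5 rose (AARS1, CARS1, IARS1, MARS1 and WARS1, 0.15 to 0.30) and 6 fell (FARSA, FARSB, HARS1, KARS1, RARS1 and VARS1), beside 15.5% of all genes called, 6.64% higher and 8.9% lower. VARS1 changed most among those that fell, with 162, 160 and 153 CPM at 500 µg/mL, against 196, 184 and 187 CPM at 20 µg/mL (-0.25 ± 0.04, adjusted p = 2.89e-05). The 5 that rose belonged to the 12 of the other formulas, and the 6 that fell did not. This split depends on scaling: by library size alone 8 cytosolic enzymes were higher and 1 was lower. Without replicate 2 at 20 µg/mL, or without replicate 3 at 500 µg/mL, 7 members were called in place of 13.

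The dose effects differed between formulas by the test of the difference itself. Sayeok-tang minus Bojungikgi-tang was called for 11 cytosolic enzymes, all larger in Sayeok-tang and all among the 12 (4.49% of all genes called, 2.12% higher and 2.37% lower), and for 0 mitochondrial and 0 scaffold members. At an unadjusted p under 0.05 edgeR gave 3 mitochondrial members higher, 1 lower and 2 scaffold members higher, and DESeq2 called 0 of them. WARS1 (0.55 ± 0.05) and GARS1 (0.54 ± 0.05) differed most, and LARS1, the leucine enzyme, did not pass (0.13 ± 0.05, adjusted p = 0.208). Sayeok-tang minus Banhasasim-tang was called, among cytosolic enzymes, for all 12, each smaller in Sayeok-tang (24.4% of all genes called, 12.2% lower), between -0.22 for IARS1 and -0.78 for GARS1. Banhasasim-tang minus Bojungikgi-tang was called, among cytosolic enzymes, for the 12 and for VARS1 (31.8% of all genes called, 16.5% higher and 15.3% lower), up to 1.31 ± 0.06 for GARS1. With scaling by library size alone, 12 cytosolic enzymes were higher and 2 lower in it, in place of 13 and 0. For Sayeok-tang minus Banhasasim-tang that scaling gave 0 higher and 11 lower, and for Sayeok-tang minus Bojungikgi-tang 11 and 0. The doses were matched in µg/mL of extract, and nothing here says how much of any compound a dose held. Banhasasim-tang carries another label set than Sayeok-tang and Bojungikgi-tang, so formula and label set cannot be told apart in its differences from them.

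**Figure D4:**
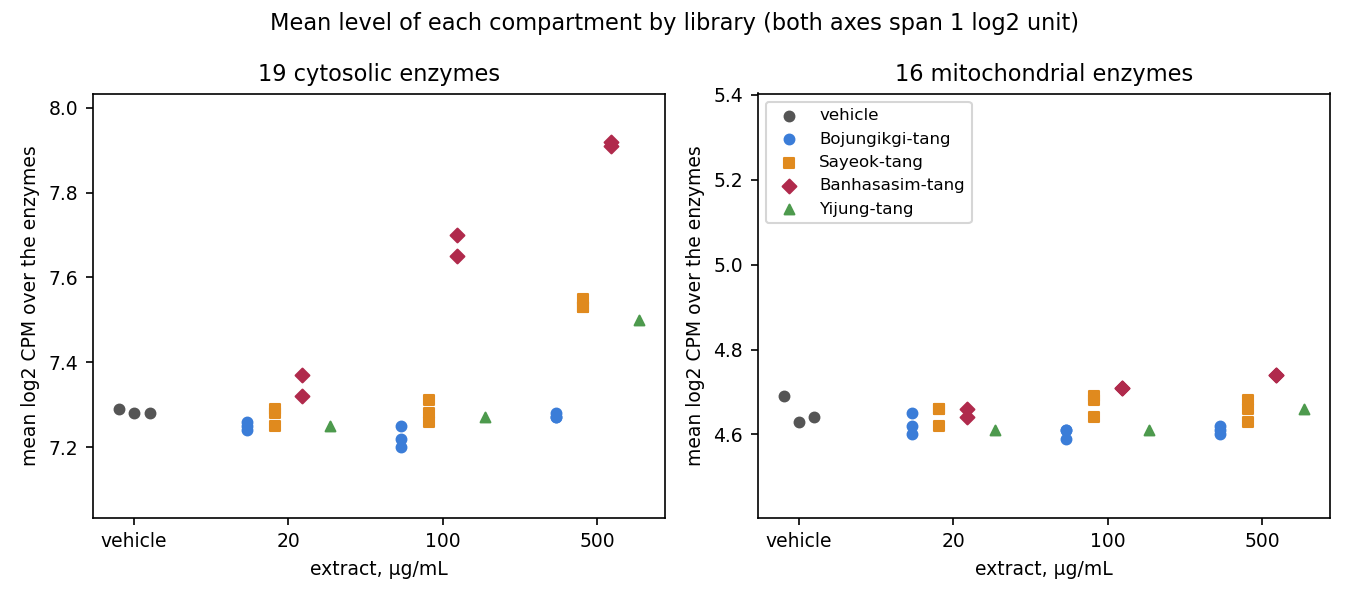
Mean log2 CPM over the 19 cytosolic enzymes (left) and over the 16 mitochondrial enzymes (right) in each library, by dose and formula. The cytosolic mean lies at 7.91 and 7.92 at 500 µg/mL of Banhasasim-tang and at 7.53 to 7.55 at 500 µg/mL of Sayeok-tang, against 7.28 to 7.29 in vehicle, while the mitochondrial mean lies between 4.59 and 4.74 in all 30 libraries.

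The distance between compartments widened in the libraries where the 12 enzymes were high. The mean log2 CPM of the cytosolic enzymes exceeded that of the mitochondrial enzymes by 3.17 and 3.18 at 500 µg/mL of Banhasasim-tang, against 2.71 and 2.67 at 20 µg/mL. In Sayeok-tang the difference was 2.85, 2.89 and 2.89 at 500 µg/mL, against 2.63, 2.62 and 2.61 at 20 µg/mL. Vehicle libraries had 2.61, 2.65 and 2.64. Bojungikgi-tang had 2.65 to 2.67 at 500 µg/mL, against 2.61 to 2.65 at 20 µg/mL, so its dose groups met.

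Set beside the enzyme for the same amino acid, the cytosolic gene had the higher signed log2 fold change in 15 of 17 pairs in Sayeok-tang (median difference 0.26 log2), in 12 of 17 in Banhasasim-tang (0.51) and in 9 of 17 in Bojungikgi-tang (0.03). These counts follow the sign of the difference and not the size of the change: FARSA, at -0.08 in Sayeok-tang against -0.16 for FARS2, is counted as higher. EPRS1, which charges both glutamate and proline, is paired here with EARS2 and with PARS2, and both subunits of the phenylalanine enzyme are paired with FARS2. The widest pair in Sayeok-tang was tryptophan, where WARS1 changed by 0.79 and WARS2 by -0.19. In Banhasasim-tang it was serine, with SARS1 at 1.04 and SARS2 at -0.41. Valine ran the other way in Banhasasim-tang, with VARS1 at -0.01 and VARS2 at 0.56.

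**Figure D5:**
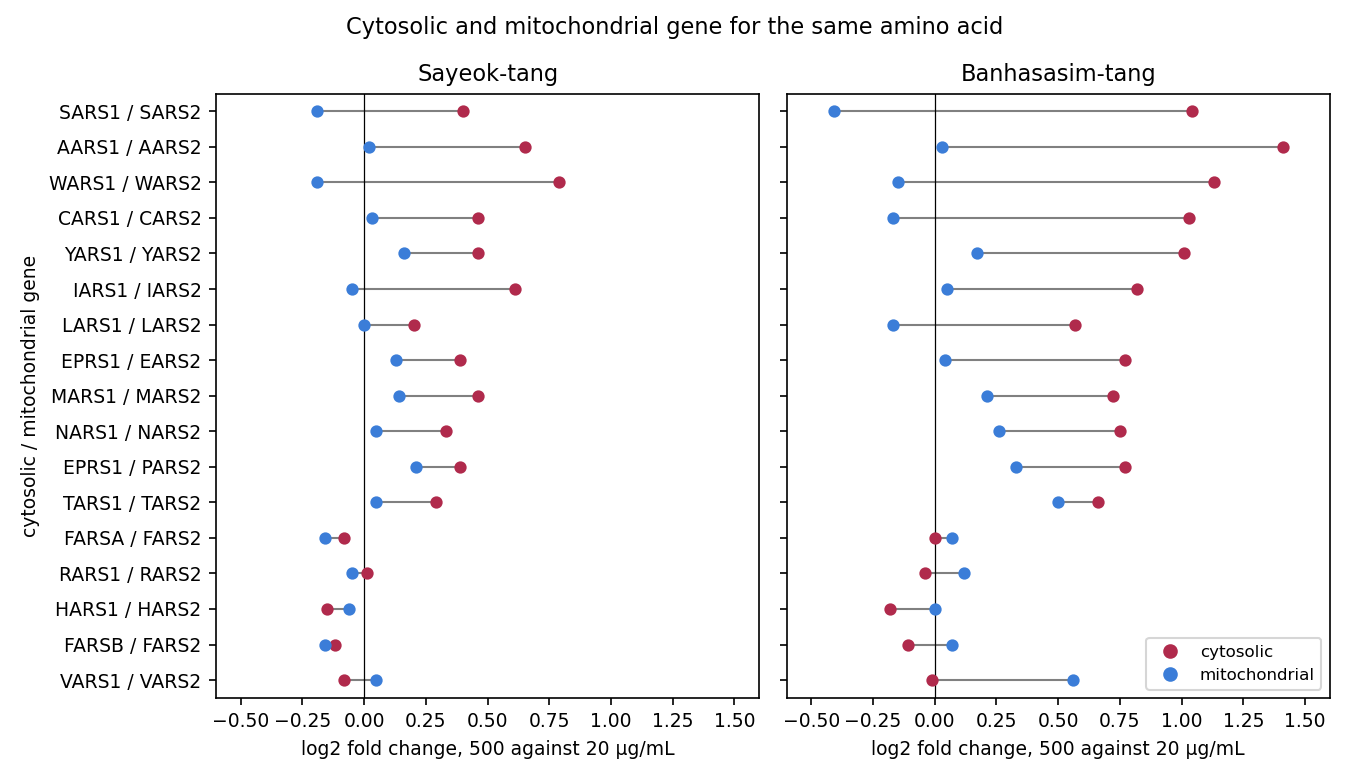
Log2 fold change at 500 against 20 µg/mL of the cytosolic (red) and mitochondrial (blue) gene for the same amino acid, in Sayeok-tang (left) and Banhasasim-tang (right), ordered by the difference in Banhasasim-tang. The serine pair is the widest in Banhasasim-tang (1.04 against -0.41), and in the valine pair at the bottom the mitochondrial gene lies to the right.

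The mitochondrial enzymes moved in both directions. In Sayeok-tang at 500 against 20 µg/mL, PARS2 and EARS2 rose and SARS2 and WARS2 fell. In Banhasasim-tang VARS2, TARS2, PARS2, NARS2 and MARS2 rose and SARS2, CARS2 and LARS2 fell. The 4 of 16 called in Sayeok-tang and the 8 of 16 in Banhasasim-tang were near the shares of all genes called, 20.5% and 43.7%, so these counts do not set the mitochondrial enzymes apart. MARS2 was at the threshold (0.21, adjusted p = 0.0483), and its call was lost with DESeq2 (adjusted p = 0.135) and without any 1 library of the comparison (adjusted p = 0.0666 to 0.228). The split depends on scaling: by library size alone 3 rose and 1 fell in Sayeok-tang, and 4 rose and 4 fell in Banhasasim-tang. In Bojungikgi-tang CARS2 alone was called, lower (-0.15 ± 0.04, adjusted p = 0.0206). CARS2 shares exon sequence with the opposite-strand gene ING1, and its expected counts were not whole in 96.7% of libraries.

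PARS2, the proline enzyme, had 11.3, 10.6 and 9.96 CPM at 500 µg/mL of Sayeok-tang, against 9.11, 9.06 and 9.44 CPM at 20 µg/mL (0.21 ± 0.06, adjusted p = 0.0131). EARS2, the glutamate enzyme, had 39.0, 40.7 and 39.3 CPM at 500 µg/mL of Sayeok-tang, against 36.6, 37.0 and 35.1 CPM at 20 µg/mL (0.13 ± 0.04, adjusted p = 0.0411). WARS2 had 10.6, 10.7 and 9.52 CPM at 500 µg/mL of Sayeok-tang, against 11.1, 12.1 and 12.2 CPM at 20 µg/mL (-0.19 ± 0.06, adjusted p = 0.0341). These groups did not overlap, but the differences were near the threshold. Leaving out any 1 library of the comparison left 0 or 1 of the 2 higher calls. In this comparison 4 of 16 mitochondrial enzymes lay all above and 3 all below. The exons of EARS2 overlap those of the opposite-strand gene UBFD1, and its expected counts were not whole in 40.0% of libraries.

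SARS2, the serine enzyme, fell in both formulas. It had 21.5, 21.4 and 22.5 CPM at 500 µg/mL of Sayeok-tang, against 24.1, 24.8 and 25.8 CPM at 20 µg/mL (-0.19 ± 0.05, adjusted p = 0.00465). In Banhasasim-tang SARS2 had 17.3 and 20.3 CPM at 500 µg/mL, against 25.5 and 24.8 CPM at 20 µg/mL (-0.41 ± 0.06, adjusted p = 2.01e-06). Its expected counts were not whole in 100% of libraries, and its exons overlap those of the opposite-strand gene MRPS12.

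VARS2 and TARS2, the valine and threonine enzymes, rose in Banhasasim-tang. VARS2 had 31.6 and 32.9 CPM at 500 µg/mL of Banhasasim-tang, against 22.1 and 21.9 CPM at 20 µg/mL (0.56 ± 0.07, adjusted p = 7.6e-08). VARS2 shares exon sequence with the same-strand gene GTF2H4, and its expected counts were not whole in 100% of libraries. TARS2 had 32.9 and 36.6 CPM at 500 µg/mL of Banhasasim-tang, against 25.0 and 24.2 CPM at 20 µg/mL (0.50 ± 0.06, adjusted p = 2.42e-08). In Sayeok-tang VARS2 changed by 0.05 ± 0.06 and TARS2 by 0.05 ± 0.05, and the dose effect of both was smaller than in Banhasasim-tang by the test of the difference (-0.51 ± 0.09 and -0.45 ± 0.07, adjusted p = 5.47e-05 and 2.78e-05). The least changed mitochondrial members in Sayeok-tang were LARS2, with 46.3, 45.4 and 41.8 CPM at 500 µg/mL, against 45.6, 44.9 and 43.0 CPM at 20 µg/mL, and AARS2, with 29.4, 27.0 and 29.4 CPM, against 27.4, 27.8 and 29.3 CPM.

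Of the scaffold genes, AIMP2 was the one raised in Banhasasim-tang. It had 61.3 and 63.9 CPM at 500 µg/mL, against 50.8 and 47.7 CPM at 20 µg/mL (0.35 ± 0.08, adjusted p = 0.000501). In Sayeok-tang AIMP2 had 53.8, 59.6 and 50.3 CPM, against 47.2, 49.4 and 51.4 CPM, and these overlapped. EEF1E1 had 37.5, 36.1 and 36.6 CPM at 500 µg/mL of Bojungikgi-tang, against 40.0, 48.7 and 39.4 CPM at 20 µg/mL (-0.22 ± 0.06, adjusted p = 0.0127), and without replicate 2 at 20 µg/mL, the high one, this was -0.11 (adjusted p = 0.166). AIMP1 was not called at 500 against 20 µg/mL in any formula and had 48.5 and 47.1 CPM at 500 µg/mL of Banhasasim-tang, against 45.1 and 44.2 CPM at 20 µg/mL. AIMP2 shares exon sequence with the opposite-strand gene EIF2AK1, and its expected counts were not whole in 100% of libraries. For AIMP1, whose exons overlap those of the opposite-strand gene TBCK, this was 83.3%. For EEF1E1, which overlaps the same-strand gene EEF1E1-BLOC1S5, it was 20.0%.

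Yijung-tang, with 1 library per dose, has no replicate check and is given as values. WARS1 had 234, 252 and 378 CPM at 20, 100 and 500 µg/mL, AARS1 had 192, 200 and 288 CPM, and GARS1 had 191, 193 and 274 CPM. The log2 ratio of the 500 to the 20 µg/mL library was above 0 for each of the 12 enzymes (0.09 to 0.69, median 0.44) and lay between -0.10 and 0.04 for the other 7 cytosolic enzymes. The mitochondrial median was 0.03, and that of all genes was 0.

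Against vehicle, most of the 12 enzymes were again higher at 500 µg/mL of Sayeok-tang and Banhasasim-tang, with the label set as a limit and the same 3 vehicle libraries in each comparison. Banhasasim-tang at 500 µg/mL had 14 cytosolic enzymes higher and 2 lower (51.0% of all genes called, 25.9% higher and 25.1% lower), the 12 together with FARSA and VARS1. By library size alone these counts were 12 and 4, and the change of VARS1 was -0.02. Sayeok-tang at 500 µg/mL had 12 higher and 1 lower (38.3%, 18.8% higher and 19.4% lower), 11 of the 12 and FARSA. Bojungikgi-tang at 500 µg/mL had 4 higher and 7 lower (34.6%, 16.4% higher and 18.2% lower), and by library size alone 5 higher and 4 lower.

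At 100 µg/mL against vehicle, cytosolic enzymes were 14 higher and 2 lower in Banhasasim-tang (28.1% of all genes called, 14.4% higher and 13.7% lower). They were 3 and 3 in Sayeok-tang (29.2%, 14.3% higher and 14.9% lower) and 1 and 7 in Bojungikgi-tang (22.1%, 9.88% higher and 12.3% lower). At 20 µg/mL they were 4 and 1 in Banhasasim-tang (18.3%, 8.89% higher and 9.39% lower; 2 and 3 by library size alone), 1 and 3 in Sayeok-tang (25.3%, 13.4% lower) and 1 and 4 in Bojungikgi-tang (26.2%, 12.4% higher and 13.8% lower). EPRS1 was lower than vehicle at 20 µg/mL in all 3 formulas (-0.11 to -0.20) and higher at 500 µg/mL in Banhasasim-tang (0.66 ± 0.04) and Sayeok-tang (0.19 ± 0.03).

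For the mitochondrial enzymes, IARS2 was lower and TARS2 higher than vehicle at all doses of the 3 replicated formulas. IARS2 lay between 104 and 125 CPM in the treated libraries of these formulas, against 149, 145 and 143 CPM in vehicle, with log2 fold changes of -0.28 to -0.41. TARS2 lay between 23.7 and 36.6 CPM in those treated libraries, against 22.7, 21.1 and 22.2 CPM in vehicle. For both genes no treated library of these formulas overlapped vehicle, and the share of all genes for which this holds is not given. Treatment and the vehicle label set cannot be told apart here. At 500 µg/mL against vehicle, mitochondrial enzymes were 7 higher and 5 lower in Banhasasim-tang (3 and 6 by library size alone). They were 5 and 3 in Sayeok-tang and 4 and 4 in Bojungikgi-tang. Of all genes 51.0%, 38.3% and 34.6% were called in these comparisons. IARS2 did not change with dose (-0.10, -0.05 and 0.05 in Bojungikgi-tang, Sayeok-tang and Banhasasim-tang, none called).

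Genes around the synthetases were counted in the same comparisons. In a list of 20 genes of the amino acid and integrated stress response, 15 were higher and 0 lower at 500 against 20 µg/mL of Sayeok-tang (median 0.88), 15 and 1 in Banhasasim-tang (1.5), and 10 and 0 in Bojungikgi-tang (0.29). TRIB3, a pseudokinase induced by ATF4, rose by 1.73 ± 0.06 in Sayeok-tang and 3.48 ± 0.07 in Banhasasim-tang, and CHAC1, a glutathione-degrading enzyme, by 1.80 ± 0.09 and 2.09 ± 0.10. In 21 genes of tRNA maturation, modification and export, 4 rose and 3 fell in Sayeok-tang, 7 and 4 in Banhasasim-tang, and 2 and 6 in Bojungikgi-tang. Of all genes 20.5%, 43.7% and 15.5% were called in these comparisons, so the 11 of 21 called in Banhasasim-tang were near the share of all genes. XPOT, the tRNA exporter, rose by 0.79 ± 0.04 in Sayeok-tang and 0.27 ± 0.04 in Bojungikgi-tang, and rose in Banhasasim-tang too. POP1, a subunit of RNase P, fell by 0.20 on the log2 scale in Sayeok-tang and by 0.85 in Banhasasim-tang.

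Translation factor genes were called at shares that differed between formulas. Of 7 cytosolic elongation factor genes, 0 rose and 1 fell in Sayeok-tang, 2 and 2 in Banhasasim-tang, and 0 and 3 in Bojungikgi-tang. EIF5A, which helps ribosomes past slow peptide bonds, fell in all 3 (-0.21, -0.24 and -0.28). Of 12 mitochondrial translation factor genes, 0 rose and 2 fell in Sayeok-tang (MTRF1L at -0.23 and GFM1 at -0.12), 4 and 2 in Banhasasim-tang, and 0 and 2 in Bojungikgi-tang. Over all genes the shares higher and lower were 9.89% and 10.6% in Sayeok-tang, 22.3% and 21.3% in Banhasasim-tang, and 6.64% and 8.9% in Bojungikgi-tang. In lists of 7 and 12 genes, the 2 and 4 higher in Banhasasim-tang were near the share of all genes and do not set either list apart. Where edgeR gave 0 higher in either list, the count at an unadjusted p under 0.05 was 0 too, except for 1 mitochondrial factor in Sayeok-tang, and DESeq2 gave 0.

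Many summed levels of cell type markers also differed between 500 and 20 µg/mL, in Bojungikgi-tang as well. The summed level of 4 microglia and macrophage markers, led by PTPRC, was 4.28 to 4.82 CPM at 500 µg/mL of Banhasasim-tang, against 15.3 to 16.2 CPM at 20 µg/mL, and 8.41 to 9.85 CPM at 500 µg/mL of Sayeok-tang, against 14.3 to 18.3 CPM at 20 µg/mL, while AIF1 was at 0 in vehicle. The sum of 4 neuron markers, most of it TUBB3, was 78.4 to 82.3 CPM at 500 µg/mL of Banhasasim-tang, against 149 to 152 CPM at 20 µg/mL (1 marker higher, 2 lower), and 105 to 107 CPM at 500 µg/mL of Sayeok-tang, against 156 to 162 CPM at 20 µg/mL (0 higher, 3 lower). Oligodendrocyte markers, 4 genes led by CNP with MOG at 0 in vehicle, summed to 117 to 119 CPM, against 145 to 147 CPM, in Banhasasim-tang and to 145 to 149 CPM, against 152 to 158 CPM, in Sayeok-tang. Epithelial markers, 4 genes led by KRT7 with EPCAM at 0.0475 and CDH1 at 0.0237 CPM in vehicle, summed to 735 to 816 CPM, against 895 to 902 CPM, in Banhasasim-tang and to 796 to 849 CPM, against 937 to 988 CPM, in Sayeok-tang. The sum of 8 astrocyte markers was 195 to 198 CPM at 500 µg/mL of Banhasasim-tang, against 299 to 311 CPM at 20 µg/mL, with 0 of 6 tested markers higher and 4 lower. For Sayeok-tang these sums were 302 to 307 CPM, against 305 to 312 CPM, and they overlapped. Beside these marker calls, 22.3% of all genes were higher and 21.3% lower in Banhasasim-tang, and 9.89% and 10.6% in Sayeok-tang. At 500 µg/mL of Bojungikgi-tang the epithelial sum was 585 to 668 CPM, against 885 to 983 CPM at 20 µg/mL. Its microglia and macrophage sum was 11.6 to 12.9 CPM, against 15.9 to 17.8 CPM, and its neuron sum 151 to 157 CPM, against 162 to 178 CPM. The astrocyte sum there went the other way, at 325 to 328 CPM, against 307 to 320 CPM, and the oligodendrocyte sums overlapped. The part of the markers in the synthetase changes, and that of the mitochondrial ribosomal RNA share, was not tested.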

How the data were processed

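The deposited table holds expected counts per gene, estimates that need not be whole, per the file's values. Tools named, in no order, in the submitters' processing notes are STAR 2.7.3a, RSEM 1.3.3, Trim Galore 0.6.5 and FastQC 0.11.9, with GRCh38. No source used here gives the annotation release. Values were rounded before testing, 9.36 to 11.1% of those of a library not being whole. Members were matched by Ensembl identifier through current and older symbols. Genes passing edgeR's filterByExpr (19632, all 38 members among them) were scaled by TMM and fitted with 13 group means over 30 libraries (edgeR 4.0.16, R 4.3.3, robust quasi-likelihood test). Adjusted p-values are Benjamini-Hochberg over all genes tested, called under 0.05, and SE is that of the log2 fold change. CPM values of members use TMM-scaled library sizes, and log2 CPM a prior count of 2, while marker CPM values use total counts. Depth was 28.01 to 59.9 M counts per library. Yijung-tang added nothing to the estimate of spread.

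Groups and replicate numbers came from the sample labels. Values were given in every library for the cytosolic and mitochondrial enzymes with the largest and smallest Sayeok-tang dose effects, the scaffold genes, GARS1, KARS1 and members whose dose effect differed between formulas. The members and lists were chosen with earlier results of these data known. One of the lists is not reported here. DESeq2 1.42.0, other scalings and filters, smaller fits, a replicate block, a covariate of 18S ribosomal RNA and leaving out each library were tried as alternatives. The scripts were tested on simulated data. Same-numbered libraries did not deviate together in every pair, so the numbers were not taken as pairing. Gene coordinates are from GENCODE v29 on GRCh38, and sequences are from RefSeq promoters.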

Additional observations from a re-analysis of the deposited data

Results flagged for a closer look

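The dose effect (500 against 20 µg/mL) of 47 pairs of gene and formula comparison differed between formulas by edgeR's interaction test at an adjusted p under 0.05. Values are differences of log2 fold changes, and comparisons that use the same formula share its libraries. Of all genes, 4.49% were called in Sayeok-tang minus Bojungikgi-tang, 24.4% in Sayeok-tang minus Banhasasim-tang and 31.8% in Banhasasim-tang minus Bojungikgi-tang.

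For Sayeok-tang minus Bojungikgi-tang the differences were 0.55 for WARS1, 0.54 for GARS1, 0.45 for SARS1, 0.43 for IARS1, 0.40 for YARS1, 0.35 for AARS1, 0.34 for EPRS1, 0.31 for MARS1, 0.29 for TARS1, 0.28 for NARS1 and 0.22 for CARS1.

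For Sayeok-tang minus Banhasasim-tang they were -0.78 for GARS1, -0.77 for AARS1, -0.64 for SARS1, -0.56 for CARS1, -0.55 for YARS1, -0.42 for NARS1, -0.38 for TARS1, -0.38 for EPRS1, -0.37 for LARS1, -0.34 for WARS1, -0.26 for MARS1 and -0.22 for IARS1. Among mitochondrial enzymes they were -0.51 for VARS2, -0.45 for TARS2, 0.22 for SARS2 and 0.20 for CARS2. The 2 higher and 2 lower of 16 mitochondrial enzymes were near the shares of all genes, 12.2% higher and 12.2% lower.

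For Banhasasim-tang minus Bojungikgi-tang they were 1.31 for GARS1, 1.11 for AARS1, 1.08 for SARS1, 0.95 for YARS1, 0.89 for WARS1, 0.78 for CARS1, 0.72 for EPRS1, 0.70 for NARS1, 0.66 for TARS1, 0.65 for IARS1, 0.57 for MARS1, 0.50 for LARS1 and 0.24 for VARS1. Mitochondrial enzymes gave 0.46 for VARS2, 0.43 for TARS2, 0.32 for NARS2, -0.20 for LARS2 and -0.42 for SARS2, and the scaffold genes gave 0.42 for AIMP2 and 0.32 for EEF1E1. The 3 higher and 2 lower of 16 mitochondrial enzymes were near the shares of all genes, 16.5% higher and 15.3% lower.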

How the results depend on the processing

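The 12 cytosolic enzymes higher at 500 against 20 µg/mL in Sayeok-tang and in Banhasasim-tang, and the 12 at 100 against 20 µg/mL of Banhasasim-tang, were 12 under all alternatives and without each library in turn. Depth, 2 libraries per Banhasasim-tang dose and the label sets of vehicle and of the formulas limit the rest. Scaling by library size alone moved the median of all genes in comparisons with Banhasasim-tang, for example to -0.12 at 500 µg/mL against vehicle, 34.1% of calls then being higher, beside 50.7%. The cause of the changes below was not tested.

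Counts of called members moved as follows. At 500 against 20 µg/mL of Bojungikgi-tang, fitting the compared groups alone gave 4 members (13 in the model of all groups), 3 cytosolic higher and 0 mitochondrial lower, and library size alone gave 8 cytosolic higher, 1 mitochondrial higher and 0 lower. In Sayeok-tang the 2 mitochondrial enzymes higher became 1 with the 18S covariate, 1 with the compared groups alone and 0 without a low-count filter, and the 2 lower became 1 with the compared groups alone, with library size alone and without a filter. At 100 against 20 µg/mL, Bojungikgi-tang had 2 with DESeq2 and 0 with the compared groups or library size alone (1 otherwise), and Sayeok-tang had 1 with DESeq2 (0 otherwise). Against vehicle, the 18S covariate gave 13 at 500, 5 at 100 and 6 at 20 µg/mL of Bojungikgi-tang, in place of 21, 11 and 10. No filter gave 4 at 100 µg/mL of Bojungikgi-tang, 5 at 20 µg/mL of Sayeok-tang (8 otherwise) and 4 at 20 µg/mL of Banhasasim-tang (9 otherwise). The compared groups alone gave 6 at 20 µg/mL of Bojungikgi-tang and 17 at 20 µg/mL of Banhasasim-tang.

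Leaving out each library in turn gave 7 to 12 members at 500 against 20 µg/mL of Bojungikgi-tang and 0 to 1 mitochondrial lower. It gave 0 to 1 mitochondrial higher and 1 to 2 lower in Sayeok-tang, and 4 mitochondrial higher (5 with all libraries) and 1 to 3 lower in Banhasasim-tang, where 1 lower call was left without replicate 2 at 20 or replicate 3 at 500 µg/mL. At 100 against 20 µg/mL of Bojungikgi-tang it gave 0 to 2. Against vehicle it gave 6 to 10 at 100 and 6 to 11 at 20 µg/mL of Bojungikgi-tang, and 4 to 8 at 20 µg/mL of Banhasasim-tang, the lowest without replicate 2 at that dose.

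Signs turned in members that were not called at 500 against 20 µg/mL. By library size alone EARS2 was 0.04 in Bojungikgi-tang, AIMP1 0.02 and EEF1E1 0.00 in Sayeok-tang, and FARSA -0.07, KARS1 -0.04, AARS2 -0.04 and EARS2 -0.03 in Banhasasim-tang. LARS2 in Sayeok-tang was -0.01 with the 18S covariate and 0.00 with DESeq2 or its size factors. FARSA in Banhasasim-tang was 0.00 with DESeq2, -0.01 with its size factors, -0.01 with the compared groups alone and 0.00 without a filter. Against vehicle, library size alone gave VARS1 -0.02 at 500 and -0.02 at 100 µg/mL and EARS2 0.00 at 100 µg/mL of Banhasasim-tang. Without single libraries the ranges were -0.07 to 0.02 for EARS2, -0.01 to 0.03 for SARS2 and -0.14 to 0.02 for AIMP2 in Bojungikgi-tang. They were -0.02 to 0.04 for RARS1, 0.00 to 0.06 for AARS2, -0.03 to 0.04 for LARS2 and -0.07 to 0.05 for AIMP1 in Sayeok-tang, and -0.07 to 0.07 for FARSA and -0.01 to 0.07 for KARS1 in Banhasasim-tang.

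With the replicate number as a block, 13, 19 and 22 members were called at 500 against 20 µg/mL of Bojungikgi-tang, Sayeok-tang and Banhasasim-tang, against 13, 19 and 23 without it. The correlation of same-numbered libraries was -0.132 in Banhasasim-tang, and with the numbers crossed, an alternative chosen after seeing the data, 22 were called.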
